A study of Homo sapiens with 46 samples.

Results

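Transcripts of the 3 human lamin genes and of 5 genes for enzymes that modify the lamin tail were followed in DLD-1 cells, an established line from a colorectal adenocarcinoma. The 8 genes are LMNA, LMNB1, LMNB2, FNTA, FNTB, RCE1, ICMT and ZMPSTE24. They were taken by symbol from the 62756 genes of a count table for 46 libraries. Auxin was added at 1 mM, and each line was sampled at 0, 16 and 96 h of treatment, for 12 groups in all. The parental line is wild type and carries no degron. In LA/C-AID, LB1-AID and LB2-AID an auxin-inducible degron was placed at the N terminus of the endogenous lamin that the line is named for: Lamin A/C in the first, Lamin B1 in the next and Lamin B2 in the last. The degron is a short protein tag that marks its carrier for destruction by the proteasome once auxin, a plant hormone, is present. Groups held 4 replicates, except LB1-AID at 0 h and LB2-AID at 96 h with 3. A replicate was 1 well of a plate, so p-values measure the spread between wells. Auxin came dissolved in DMSO. The labels are silent on whether the 0 h wells got the solvent and on whether each tagged line is a single clone. Parental cells received auxin at the same times, which gives the change without a degron. Protein was not analysed here.

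Lamins are intermediate filament proteins that build the meshwork beneath the inner nuclear membrane. LMNA encodes the A-type lamins A and C, which differ by splicing at the 3' end, and LMNB1 and LMNB2 each encode a B-type lamin. Lamins A, B1 and B2 end in a CAAX box, a cysteine followed by a short fixed tail. The enzyme formed by FNTA and FNTB, the alpha and beta subunits of protein farnesyltransferase, attaches a farnesyl lipid to that cysteine. RCE1 then cuts off the residues behind it, a step that ZMPSTE24 can also perform, and ICMT methylates the exposed cysteine. B-type lamins keep the lipid, whereas ZMPSTE24 cuts the farnesylated end off prelamin A to release mature lamin A. Lamin C has no CAAX box and skips these steps.

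The ends of both B-type lamin reading frames are shown because the CAAX box makes their products substrates of these enzymes. They were read from the GENCODE release 29 annotation on GRCh38 and run 5' to 3' over the last 69 coding bases, stop codon included. Capitals mark the 4 codons of the CAAX box, which opens with a cysteine codon.
lamin B1: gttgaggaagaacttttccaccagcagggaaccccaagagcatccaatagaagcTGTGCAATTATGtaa
lamin B2: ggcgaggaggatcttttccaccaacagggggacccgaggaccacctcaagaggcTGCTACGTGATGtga
The lamin B1 box lies at chr5:126836250-126836261 in exon 11, and the lamin B2 box at chr19:2430914-2430925 in exon 12 on the minus strand. Gene-level counts of LMNA pool lamin A with lamin C, so LMNA values do not show how much of the transcript encodes a CAAX box.

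The first 33 coding bases of the annotated reading frames are shown because the tag is at the N terminus, with the start codon in capitals. Where exactly the tag joins was not checked.
LMNB1: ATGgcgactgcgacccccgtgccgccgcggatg
LMNB2: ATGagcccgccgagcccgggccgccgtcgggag
The start codons lie at chr5:126777509-126777511 and chr19:2456931-2456933. Whether reads from the inserted tag entered the counts is not given in the sources used here.

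By the table's positions, LMNA (ENSG00000160789.24) spans chr1:156082573-156140081 on the plus strand. LMNB1 (ENSG00000113368.12) spans chr5:126776623-126837020 on the plus strand, and LMNB2 (ENSG00000176619.13) spans chr19:2427638-2456959 on the minus strand. Among the enzymes, FNTA (ENSG00000168522.13) lies at chr8:43034194-43085788, FNTB (ENSG00000257365.8) at chr14:64986895-65062652, RCE1 (ENSG00000173653.8) at chr11:66842835-66846552 and ZMPSTE24 (ENSG00000084073.10) at chr1:40258041-40294180, all on the plus strand. ICMT (ENSG00000116237.16) lies at chr1:6221193-6235972 on the minus strand. FNTB shares 44.0% of its exon bases with the readthrough gene CHURC1-FNTB on the same strand and 21.8% with MAX on the other, and RCE1 shares 19.0% with C11orf80 on its own strand. How strand was handled in counting is not given in the sources used here, so FNTB and, to a lesser degree, RCE1 counts are uncertain. The other members share at most 5.9%.

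Library totals ran from 479446 to 37309421 counts with a median of 11533218, and 6 libraries had under 5000000. Of these shallow libraries, replicate 3 of LB2-AID was at 16 h and all others were at 0 h. The others were parental replicate 4, LA/C-AID replicate 1, LB1-AID replicate 2 and LB2-AID replicates 1 and 4. Fits without the shallow libraries leave 2 libraries each in LB1-AID and LB2-AID at 0 h. The least deep, replicate 3 of LB2-AID at 16 h, gave the lowest count of every member, from 379 for LMNA to 3 for FNTB. Replicate 1 of LA/C-AID at 0 h (3318819 counts) and replicate 1 of LB2-AID at 0 h (1894447 counts) stood apart from their groups: over 8634 genes their deviation from the group followed GC content, with Spearman's rho of 0.67 and 0.70. Levels are given as counts-per-million values (CPM). All 8 epithelial markers examined were above 1 CPM in the median library, from 1.26 for VIL1 to 3979 for KRT8. Fibroblast, leukocyte and endothelial markers summed to at most 6.10, 5.29 and 17.5. By the same median cut 1 of 5 fibroblast (COL1A1, 1.26), 1 of 4 leukocyte (CD14, 2.81) and 1 of 3 endothelial markers (VWF, 6.38) passed.

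CPM were scaled by the trimmed mean of M-values (TMM). Between genes they are compared per kilobase of exon (RPKM). A change was called at a Benjamini-Hochberg adjusted p under 0.05 over 21484 genes in edgeR's quasi-likelihood test, and all 8 members were tested. In parental cells at 0 h LMNA led with 90.6 ± 13.7 RPKM (SD, n = 4). LMNB2 followed at 52.5 ± 6.02, ZMPSTE24 at 42.0 ± 2.12, LMNB1 at 40.5 ± 2.46 and ICMT at 30.0 ± 6.35, with overlapping neighbours. RCE1 at 10.2 ± 1.91, FNTA at 6.25 ± 0.950 and FNTB at 1.99 ± 0.497 came last and did not overlap each other. The top of this order differed between lines. In LA/C-AID at 0 h LMNB2 stood first at 92.2 ± 19.1 RPKM and LMNA was the third gene at 53.5 ± 28.2, overlapping LMNB1 above it. That place rests on replicate 1 at 95.0 RPKM, as the other 3 libraries gave 32.3 to 45.8. In LB2-AID at 0 h LMNB2 was the fifth at 26.4 ± 14.7. FNTB was last in all 12 groups.

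The lamins spanned wider ranges between groups than the enzymes. The highest group mean of LMNB2 was 3.49 times the lowest (LA/C-AID against LB2-AID, both at 0 h). For LMNA the ratio was 3.17 (LB1-AID at 16 h against LA/C-AID at 96 h) and for LMNB1 2.62 (LA/C-AID at 0 h against LB1-AID at 96 h). Among the enzymes it ran from 1.55 for FNTB to 2.02 for RCE1. These ratios are descriptions without a test.

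**Figure D1:**
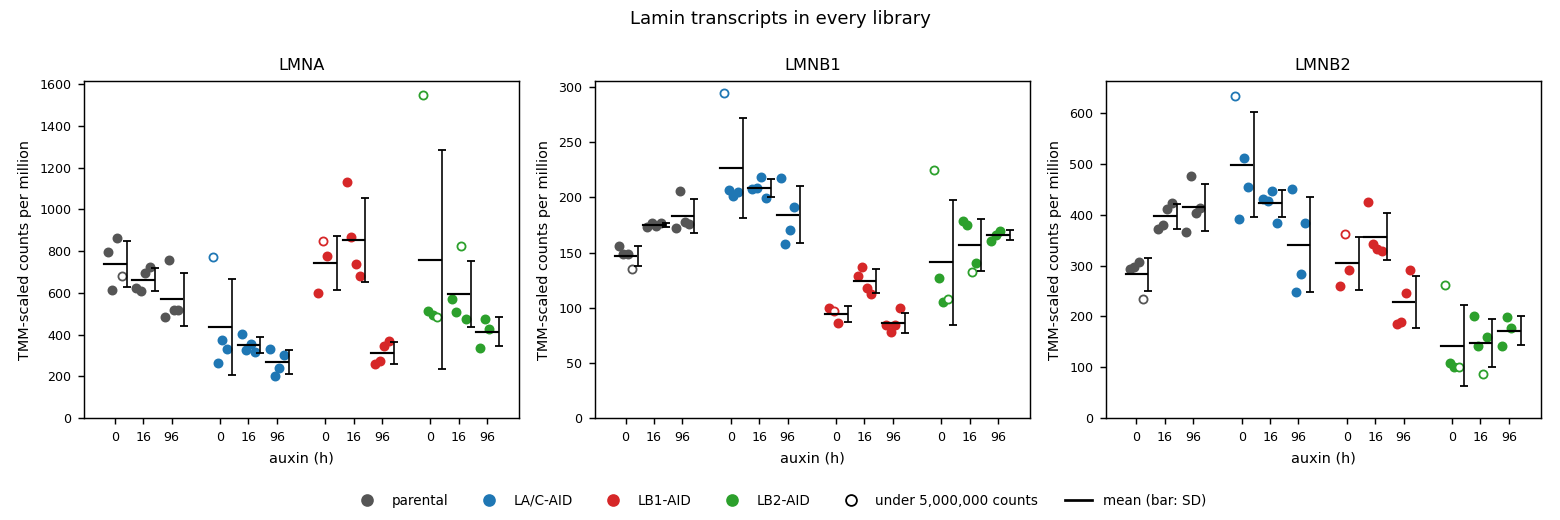
TMM-scaled CPM of LMNA, LMNB1 and LMNB2 (y axes) in each of the 46 libraries by line and hours of auxin (x axis), with horizontal lines for group means, bars for SD and open circles for libraries under 5000000 counts. LMNA lies between 203 and 402 in all LA/C-AID libraries except replicate 1 at 0 h (773), LMNB1 is at most 137 in every LB1-AID library, and LMNB2 is at most 261 in every LB2-AID library.

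Before auxin, each tagged line had less transcript of the lamin it carries the degron on. For LMNA in LA/C-AID the 4 libraries gave 773, 263, 373 and 332 CPM, against 794, 615, 862 and 680 in parental cells. Replicates 2 to 4 were below every parental library, and replicate 1, which stood apart by GC content, was inside the parental range. The log2 difference was -0.77 ± 0.26 (SE, adjusted p = 0.0346). Without replicate 1 it was -1.16 (adjusted p = 0.000491). With the trend on GC content and gene length removed from each library it was -1.12 ± 0.14 (adjusted p = 2.95e-08). The call was lost under DESeq2 (-0.79, adjusted p = 0.0801), in a fit on these 2 groups alone (-0.79, adjusted p = 0.113), and 6 of the 8 fits that left out 1 library also lost it. In bulk RNA a lower level per cell and fewer cells with the transcript cannot be told apart.

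For LMNB1 in LB1-AID the 3 libraries at 0 h gave 100, 97.6 and 86.4 CPM, against 156, 149, 149 and 135 in parental cells. The groups did not overlap. The log2 difference was -0.64 ± 0.16 (adjusted p = 0.0115) and did not move when the GC and length trend was removed (-0.64 ± 0.14, adjusted p = 0.00207). Without LB1-AID replicate 3 it was -0.57 (adjusted p = 0.116), and without the low-count filter -0.58 (adjusted p = 0.0774).

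For LMNB2 in LB2-AID the 4 libraries at 0 h gave 261, 109, 99.9 and 100 CPM, against 292, 297, 307 and 235 in parental cells. Replicates 2 to 4 were under every parental library, and replicate 1 overlapped the parental range. The log2 difference was -1.02 ± 0.21 (adjusted p = 0.000857) and -1.43 without replicate 1 (adjusted p = 1.38e-07). Fitted on these 2 groups alone it was -0.99 (adjusted p = 0.0725).

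LA/C-AID also differed from parental cells in both B-type lamins before auxin. LMNB1 stood at 295, 206, 201 and 205 CPM, above every parental library, with a log2 difference of 0.62 ± 0.15 (adjusted p = 0.0025). LMNB2 stood at 634, 392, 511 and 454 CPM, also above every parental library, with 0.81 ± 0.21 (adjusted p = 0.00481). Both calls held in all 18 alternative fits and fits without 1 library, over 0.30 to 0.69 for LMNB1 and 0.49 to 0.94 for LMNB2. Values by GC content, here and below, cover only 8657 genes of higher mean level. In this comparison those of high GC content were higher as a group: Spearman's rho with GC content was 0.49, and the 723 genes of 60 to 64% GC had a median of 0.40. LMNA (61.5% GC) and LMNB2 (61.4%) fall in that band on opposite sides of its median. With the trend removed LMNB1 kept 0.50 ± 0.13 (adjusted p = 0.00376) and LMNB2 0.52 ± 0.11 (adjusted p = 0.000734).

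Of the 8 members, 3 were called in LA/C-AID against parental at 0 h (2 higher, 1 lower), where 15.8% of all genes were called. Without the shallow libraries ICMT (0.53, adjusted p = 0.0122), ZMPSTE24 (0.46, adjusted p = 0.0145) and FNTB (0.59, adjusted p = 0.0439) were also called higher there. After removal of the trend ICMT (0.35, adjusted p = 0.049) and ZMPSTE24 (0.37, adjusted p = 0.00183) were. In LB1-AID 1 was called, against 4.05%, and in LB2-AID 2 were called, against 8.21%. The remaining call in LB2-AID was ZMPSTE24, described with the enzymes. The other lamins in LB1-AID and LB2-AID differed from parental by between -0.09 and 0.10 on the log2 scale, and none was called. Without the shallow libraries, however, LMNA in LB2-AID was at -0.58 (adjusted p = 0.0461) and LMNB1 in LB2-AID at -0.38 (adjusted p = 0.0453), both called.

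Auxin did not lower the transcript of the tagged lamin in its own line by a called amount at either time. For LMNA in LA/C-AID the libraries gave 402, 329, 355 and 317 CPM at 16 h and 332, 203, 240 and 304 at 96 h. The log2 change from 0 h was -0.31 (95% interval -0.81 to 0.20, adjusted p = 0.531) at 16 h and -0.68 (-1.19 to -0.18, adjusted p = 0.0635) at 96 h. These values rest on replicate 1 at 0 h, without which they were 0.14 (adjusted p = 0.9) and -0.24 (adjusted p = 0.615). Leaving out LA/C-AID 0 h replicate 2 or 4, or 96 h replicate 1, brought the 96 h change past the threshold instead (-0.83 to -0.76, adjusted p 0.0148 to 0.0479).

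For LMNB1 in LB1-AID the libraries gave 129, 137, 118 and 113 CPM at 16 h and 84.7, 77.7, 84.1 and 99.5 at 96 h. The 16 h libraries were all above those at 0 h, and the 96 h libraries overlapped them. The log2 change was 0.39 (0.08 to 0.71, adjusted p = 0.215) at 16 h and -0.13 (-0.44 to 0.19, adjusted p = 0.773) at 96 h. Without the 6 shallow libraries, which leaves 2 libraries at 0 h, the 16 h change was 0.43 and was called (adjusted p = 0.0326).

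For LMNB2 in LB2-AID the libraries gave 201, 142, 87.0 and 159 CPM at 16 h and 142, 198 and 177 at 96 h. Both sets overlapped the 0 h group. At 96 h only 0 h replicate 1 made them overlap, and at 16 h replicate 3, the library of 479446 counts, also lay below every 0 h library. The log2 change was 0.14 (-0.28 to 0.56, adjusted p = 0.785) at 16 h and 0.31 (-0.13 to 0.75, adjusted p = 0.551) at 96 h. Without the shallow libraries, which leaves 2 libraries at 0 h, both were called, at 0.70 (adjusted p = 0.025) and 0.74 (adjusted p = 0.00859). Without 0 h replicate 1 alone they were 0.55 (adjusted p = 0.106) and 0.75 (adjusted p = 0.0139). With the trend removed the 96 h change was 0.51 (adjusted p = 0.00572). LMNB1 in LB2-AID was likewise called without the shallow libraries, at 0.52 (adjusted p = 0.0148) and 0.53 (adjusted p = 0.00649), against 0.20 and 0.26 with them.

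The largest change after auxin among the 64 pairs of member and comparison with 0 h was that of LMNA in LB1-AID, the line whose degron is on Lamin B1. Its 3 libraries at 0 h gave 599, 850 and 778 CPM, the 4 at 16 h 1133, 866, 739 and 680, and the 4 at 96 h 258, 276, 345 and 368. All 96 h libraries were below all earlier ones. LMNA fell from 0 to 96 h (log2 change -1.25 ± 0.28, adjusted p = 0.00359) and from 16 to 96 h (-1.46 ± 0.26, adjusted p = 7.19e-05). The call against 0 h held in all 17 alternatives and fits without 1 library (-1.38 to -1.04), and that against 16 h in all 18 (-1.57 to -1.20).

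In the other lines the 96 h mean of LMNA was also below its 0 h mean, without a call. In parental cells the libraries gave 626, 609, 696 and 725 CPM at 16 h and 485, 758, 516 and 519 at 96 h, a log2 change from 0 h of -0.37 ± 0.26 at 96 h (adjusted p = 0.396). In LB2-AID they gave 569, 510, 824 and 475 CPM at 16 h and 339, 475 and 428 at 96 h, with -0.87 ± 0.28 (adjusted p = 0.0758). The 96 h libraries of LB2-AID were below the 4 at 0 h, which gave 1547, 512, 494 and 485. After removal of the trend on GC content and length the 96 h changes were -0.45 ± 0.14 in parental cells (adjusted p = 0.022), -0.66 ± 0.15 in LB2-AID (adjusted p = 0.00257), -1.13 ± 0.15 in LB1-AID (adjusted p = 1.91e-07) and -0.20 ± 0.14 in LA/C-AID (adjusted p = 0.4). Without the shallow libraries the LB2-AID change was -0.26 (adjusted p = 0.535).

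The difference between lines was tested directly. The 96 h change of LMNA in LB1-AID minus that in parental cells was -0.88 ± 0.38 (adjusted p = 0.225), and its interval ran from -1.62 to -0.14. The change in LA/C-AID minus that in LB1-AID was 0.57 ± 0.38 (adjusted p = 0.532). After removal of the trend these differences were called, at -0.68 ± 0.20 (adjusted p = 0.0432) and 0.93 ± 0.20 (adjusted p = 0.00404).

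In LB1-AID 4 members fell between 16 and 96 h, where 20.4% of all genes were called (10.9% lower). Beside LMNA these were LMNB1 (-0.52 ± 0.15, adjusted p = 0.00877), LMNB2 (-0.65 ± 0.21, adjusted p = 0.0216) and RCE1 (-0.63 ± 0.20, adjusted p = 0.0227). LMNB2 gave 425, 342, 332 and 328 CPM at 16 h and 184, 190, 246 and 292 at 96 h. RCE1 gave 52.5, 37.1, 35.9 and 29.2 CPM at 16 h and 23.2, 24.6, 26.2 and 25.0 at 96 h. For all 4 genes the groups did not overlap, but they were picked by their calls here, so this adds no support. The share of all genes without overlap was not counted. Genes of 60 to 64% GC had a median of -0.35 here, and with the trend removed the 4 changes were -1.20, -0.36, -0.40 and -0.33, all called. Under scaling by library size alone, which moved the median of all genes from 0.08 to 0.27, LMNA alone stayed called (-1.27, adjusted p = 0.000232). LMNB2 lost its call without 16 h replicate 1 or 96 h replicate 1 or 2 (-0.58 to -0.56). RCE1 lost it without any of these or 96 h replicate 4 (-0.63 to -0.48), under RLE scaling (-0.52, adjusted p = 0.0647) and under DESeq2 (-0.53, adjusted p = 0.0567). No member was called between 16 and 96 h in parental cells (0.265% of all genes), LA/C-AID (5.27%) or LB2-AID (2.5%), where 0, 0 and 2 members had an unadjusted p under 0.05. Of all 21484 genes, 1613, 4063 and 3595 did. In LB2-AID LMNA was called with the trend removed (-0.58, adjusted p = 0.0122) and ZMPSTE24 without the shallow libraries (-0.47, adjusted p = 0.0183).

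**Figure D2:**
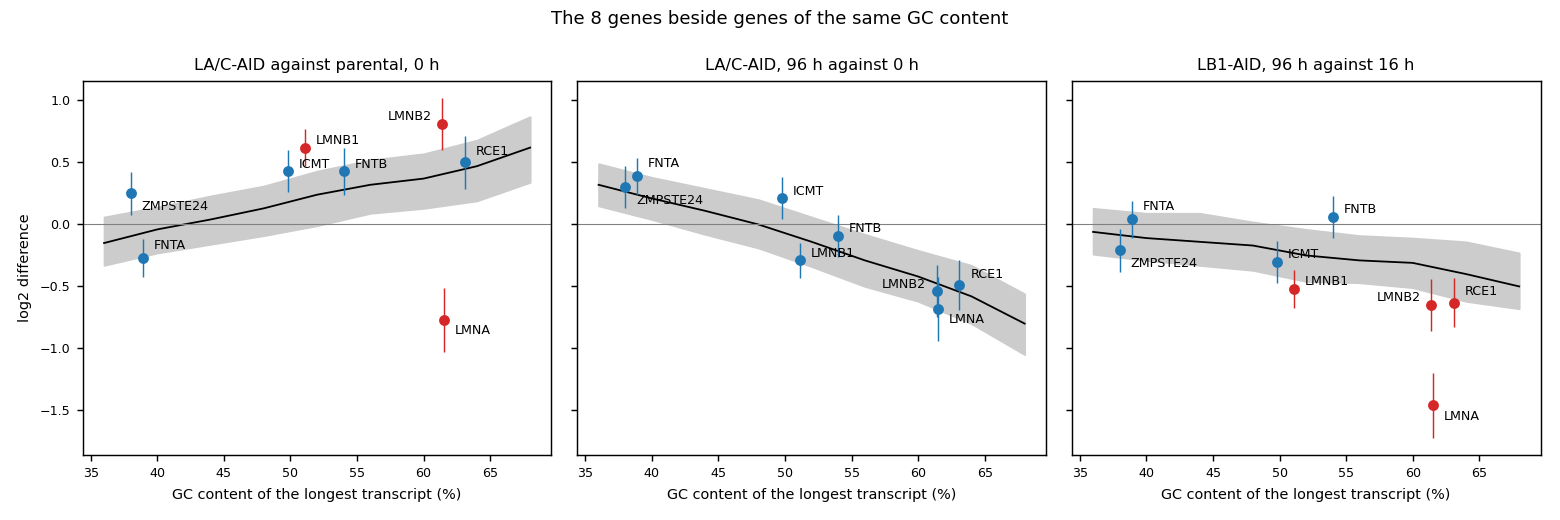
Log2 difference of the 8 members (points with bars for SE, red where called) against GC content of the longest transcript, with the median (line) and quartiles (grey) of the genes in each 4-point band of GC content, in 3 comparisons. The bands hold genes with a mean log2 CPM over 4. LMNA lies below the grey range at -0.77 in LA/C-AID at 0 h and at -1.46 in LB1-AID, while in LA/C-AID after 96 h LMNB2 (-0.54) and RCE1 (-0.49) lie inside it and LMNA (-0.68) at its lower edge.

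In parental cells the B-type lamins were above their 0 h values after auxin in every library, without a call. LMNB1 stood at 173 to 177 CPM at 16 h and 172 to 206 at 96 h (log2 changes 0.25 and 0.31, adjusted p = 0.279 and 0.185). LMNB2 gave 372, 379, 411 and 423 CPM at 16 h and 365, 475, 404 and 413 at 96 h (0.48 and 0.55, adjusted p = 0.127 and 0.09). Removing the trend brought LMNB2 past the threshold at both times (0.40 and 0.47, adjusted p = 0.0133 and 0.00292). Without the shallow libraries LMNB2 was called at both times (0.43 and 0.50, adjusted p = 0.0485 and 0.0209) and LMNB1 at 96 h (0.31, adjusted p = 0.0494). One member was called in parental cells at each time, FNTB at 16 h and ICMT at 96 h, where 9.01% and 7.78% of all genes were called.

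Against 0 h, 3 of the 64 pairs of member and comparison were called: FNTB and ICMT in parental cells and LMNA in LB1-AID at 96 h (1 of 8 members, 3.17% of all genes). No member was called in LA/C-AID at 16 h (1.78% of all genes) or 96 h (15.4%), in LB1-AID at 16 h (1.5%) or in LB2-AID at 16 h (1.81%) or 96 h (3.55%). Of those 5 comparisons' members, 2, 5, 1, 1 and 2 had an unadjusted p under 0.05. Of all 21484 genes, 4296, 6111, 3288, 3563 and 3449 did, in the same order.

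**Figure D3:**
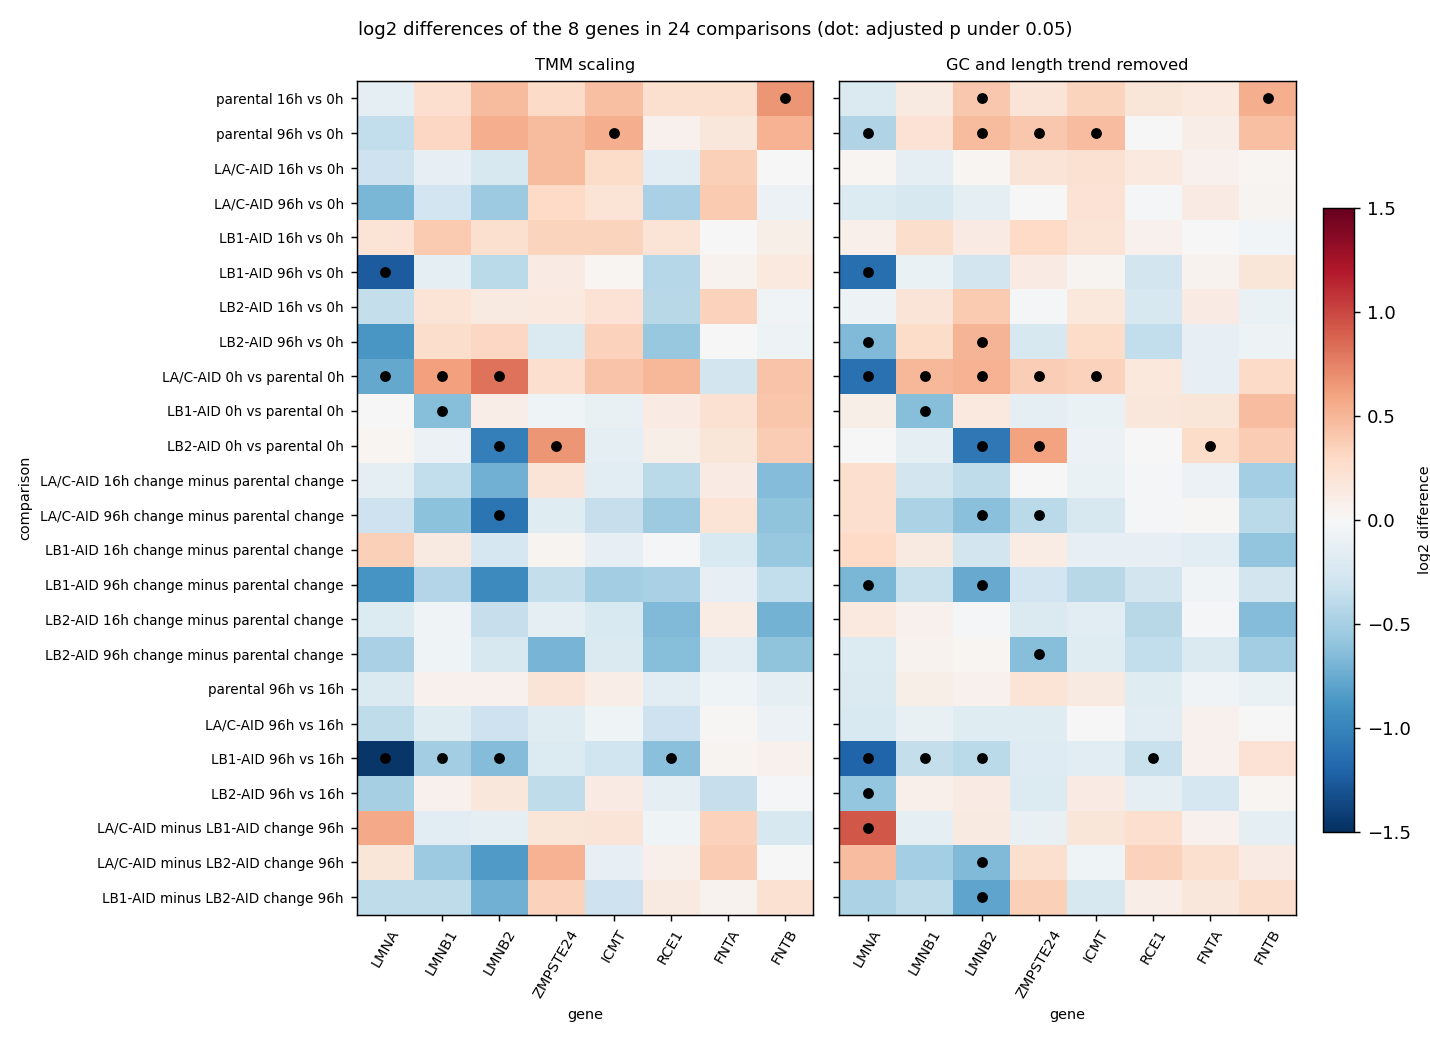
Colour shows the log2 difference of each of the 8 members (columns) in the 24 comparisons (rows), with TMM scaling on the left and the GC- and length-corrected fit on the right, and dots mark adjusted p under 0.05. There are 14 dots on the left and 31 on the right. Calls over all genes moved between these fits too, from 762 to 1681 in LB2-AID at 96 h against 0 h. In LA/C-AID at 16 h against 0 h they went from 383 to 342. In both panels LMNA in LB1-AID at 96 h against 16 h is the deepest blue (-1.46 and -1.20).

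The balance of A-type to B-type lamin transcripts was taken within each library as the log2 of LMNA over the sum of LMNB1 and LMNB2, each per length, so that no scaling between libraries enters. In parental cells it was -0.05 ± 0.21 (SD, n = 4) at 0 h, -0.58 ± 0.07 at 16 h and -0.88 ± 0.16 at 96 h, and neither auxin group overlapped the 0 h group. LB1-AID went from 0.14 ± 0.17 at 0 h (n = 3) and 0.04 ± 0.18 at 16 h to -0.79 ± 0.08 at 96 h, with the last group below all others. LB2-AID stood at 0.41 ± 0.26, 0.04 ± 0.60 and -0.62 ± 0.13 (n = 3). LA/C-AID was at -1.64 ± 0.40 before auxin, -1.66 ± 0.13 at 16 h and -1.78 ± 0.05 at 96 h, below every library of the other lines.

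In 6 of 11 comparisons of this ratio the groups did not overlap. The difference was -0.54 in parental cells at 16 h and -0.84 at 96 h, -0.92 in LB1-AID and -1.03 in LB2-AID at 96 h, -1.60 for LA/C-AID and 0.45 for LB2-AID against parental at 0 h. Each had an exact two-sided permutation p of 0.0286, the smallest that these group sizes allow, and an adjusted p of 0.0524, so 0 of 11 were called. With 6 of 11 at that smallest p none could be called, whatever the size of the difference. The 16 h changes in LB1-AID (-0.09, exact permutation p = 0.4286) and LB2-AID (-0.37, exact permutation p = 0.3714) overlapped their 0 h groups. Without LB2-AID 16 h replicate 3, the library of 479446 counts with a ratio of 0.94 against -0.31 to -0.22 in the others, 7 of 11 were called. Comparisons that do not hold that library kept their ratios. Their calls came from the adjustment, which depends on how many of the 11 reach the smallest p. In LA/C-AID the ratio changed by -0.02 at 16 h and -0.14 at 96 h. Whether the ratio responded differently between lines was not tested.

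**Figure D4:**
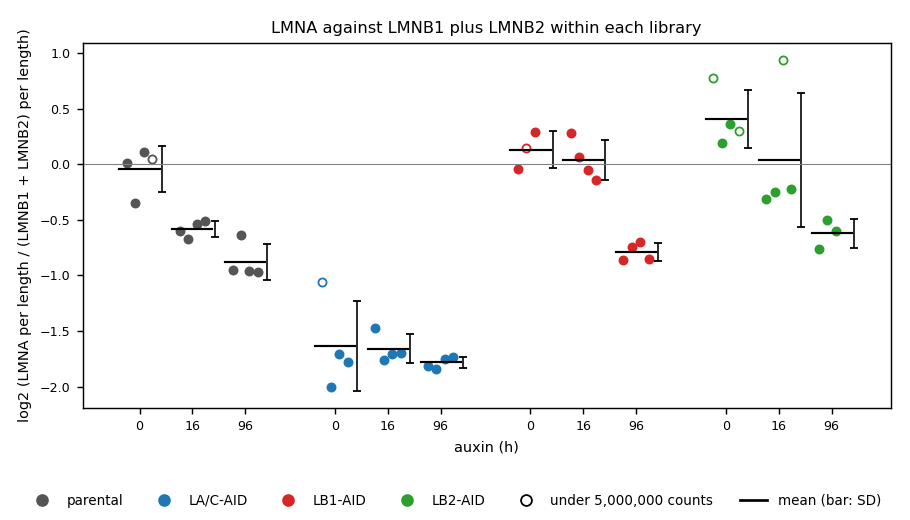
Log2 ratio of LMNA to the sum of LMNB1 and LMNB2 per length (y axis) in each library by line and hours of auxin (x axis), with lines for group means, bars for SD and open circles for libraries under 5000000 counts. All LA/C-AID libraries lie at -1.06 or lower, and the 96 h means of the other 3 lines lie between -0.88 and -0.62.

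Among the enzymes, FNTB, the beta subunit that binds the CAAX substrate, rose in parental cells. It gave 5.24, 6.69, 9.15 and 8.94 CPM at 0 h and 11.7, 10.5, 12.2 and 12.2 at 16 h, without overlap. The log2 change was 0.66 ± 0.19 (adjusted p = 0.0199), and at 96 h, with 10.0 to 11.4 CPM, it was 0.52 (adjusted p = 0.0755). The 16 h call was lost under library-size scaling (0.54, adjusted p = 0.0626) and without parental 0 h replicate 1 or 16 h replicate 4 (0.55 to 0.58). In the tagged lines the FNTB group means were 8.61 to 10.9 CPM at all times. FNTB had a median of 120.5 counts per library, so counting error weighs on its values.

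FNTA, the alpha subunit that farnesyltransferase shares with the type I geranylgeranyl transferase, was called in no comparison with TMM scaling, and with the trend removed only in LB2-AID against parental at 0 h (0.27, adjusted p = 0.0417). Its group means ran from 47.9 ± 14.1 CPM in LA/C-AID at 0 h to 84.3 ± 4.86 in LB2-AID at 16 h. The low mean in LA/C-AID rests on replicate 1, at 28.5 CPM against 49.2 to 62.0 in the other 3 libraries. FNTA has 38.9% GC.

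RCE1, the protease that trims the CAAX box, was called only in LB1-AID between 16 and 96 h, as given above. Replicate 1 of LA/C-AID and of LB2-AID at 0 h had 66.04 and 60.43 CPM, against 35.0 to 38.1 and 25.9 to 26.9 in their groups. RCE1 has 63.1% GC, the highest of the 8 genes. Its 96 h changes from 0 h were -0.49 in LA/C-AID (adjusted p = 0.0957), -0.43 in LB1-AID (adjusted p = 0.386) and -0.57 in LB2-AID (adjusted p = 0.181). With the trend removed they were -0.02, -0.27 and -0.37, and none was called.

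ICMT, the methyltransferase for the cysteine, rose in parental cells at 96 h. It gave 124, 185, 161 and 119 CPM at 0 h, 201, 202, 205 and 195 at 16 h and 224, 192, 232 and 215 at 96 h. Both auxin groups lay above the 0 h group. The log2 change was 0.45 ± 0.17 at 16 h (adjusted p = 0.0904) and 0.55 ± 0.17 at 96 h (adjusted p = 0.0377). Leaving out 1 library took the 96 h call away in 6 of 8 cases (adjusted p 0.051 to 0.143), and so did library-size scaling (0.46, adjusted p = 0.0672). In the tagged lines the changes from 0 h ran from 0.03 to 0.34, and none was called.

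ZMPSTE24, the protease that releases mature lamin A, was higher in LB2-AID than in parental cells before auxin. LB2-AID gave 180, 342, 267 and 273 CPM, and parental cells 178, 174, 159 and 165. All LB2-AID libraries were above all parental ones, replicate 1 by the least. The log2 difference was 0.66 ± 0.17 (adjusted p = 0.00869), 0.83 without replicate 1 and 0.51 without replicate 2 (adjusted p = 0.0779). At 96 h LB2-AID gave 242, 222 and 222 CPM, inside the 216 to 270 of parental cells at that time. The 96 h change in LB2-AID minus that in parental cells was -0.70 ± 0.25 (adjusted p = 0.205), and it was called with the trend removed (-0.64 ± 0.13, adjusted p = 0.00707) and without shallow libraries (-0.90, adjusted p = 0.0227). This value shares its 0 h libraries, with opposite sign, with the difference before auxin. In LA/C-AID, whose lamin is the one that ZMPSTE24 cuts, the means were 200 ± 79.1, 281 ± 19.9 and 248 ± 29.3 CPM at 0, 16 and 96 h. At 0 h replicate 1 gave 105 CPM and the others 185 to 297. The changes were 0.48 ± 0.17 (adjusted p = 0.105) and 0.30 ± 0.17 (adjusted p = 0.244), with the trend removed they were 0.19 and 0.00, and without the shallow libraries 0.27 and 0.10. In parental cells the 96 h change was 0.48 (adjusted p = 0.0709), and it was called with the trend removed (0.40, adjusted p = 0.00116) and without the shallow libraries (0.50, adjusted p = 0.00649).

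**Figure D5:**
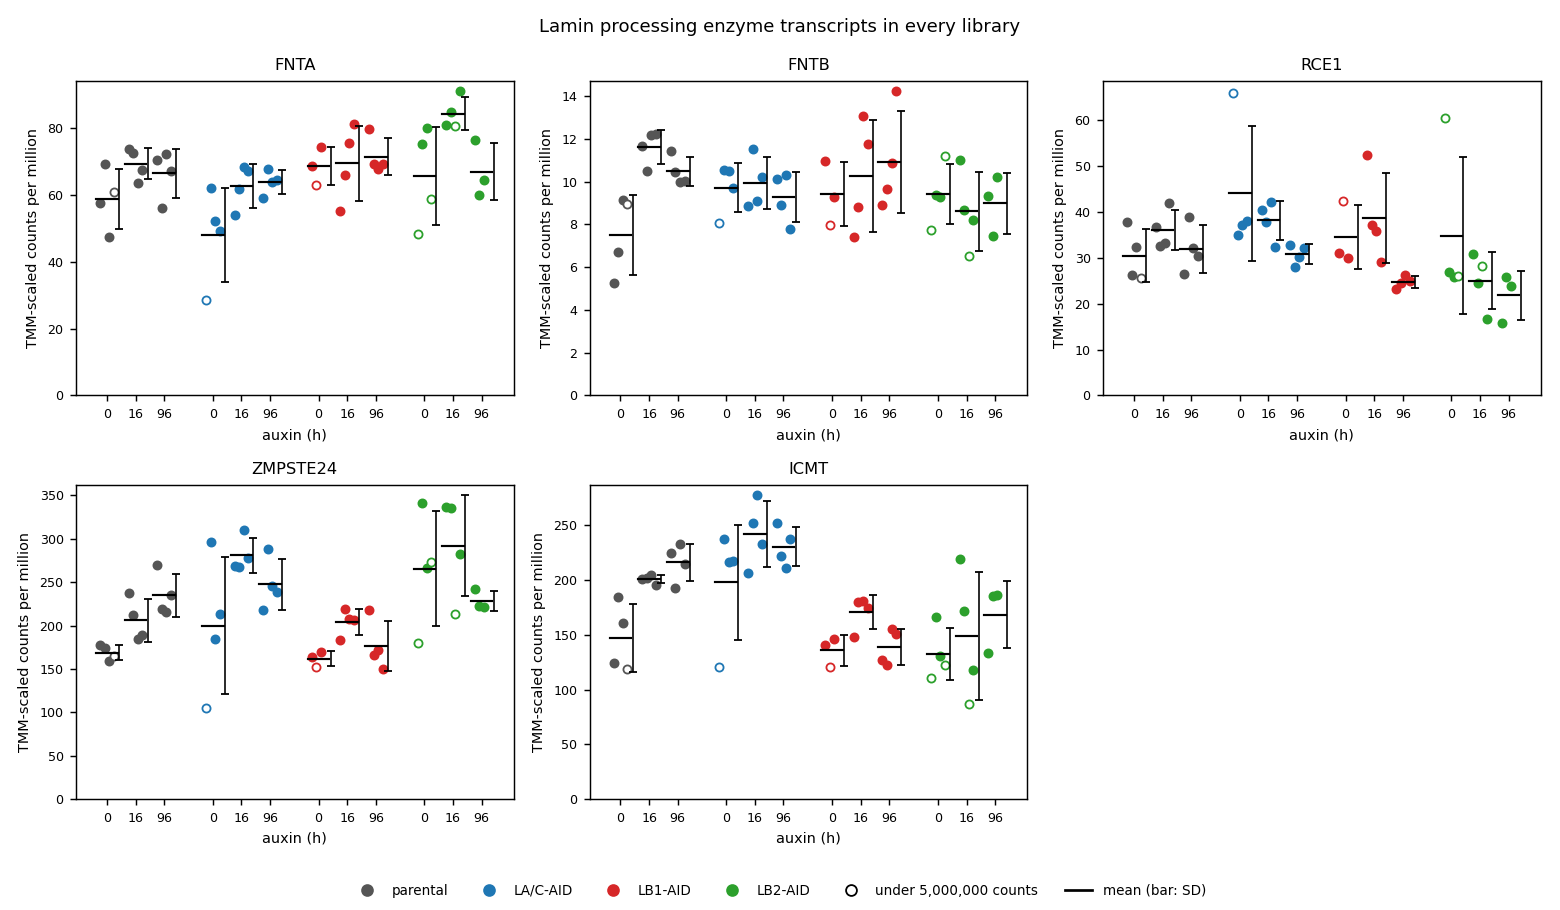
TMM-scaled CPM of FNTA, FNTB, RCE1, ZMPSTE24 and ICMT (y axes) in each library by line and hours of auxin (x axis), drawn as in the plot of lamin transcripts. All parental ICMT and FNTB libraries after auxin lie above those at 0 h, and ZMPSTE24 before auxin has a mean of 265 in LB2-AID against 169 in parental cells.

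Changes in the tagged lines were set against those of parental cells, whose libraries all 6 of these comparisons share. The 0 h libraries also enter the comparisons before auxin, with the opposite sign, so those results and these are not independent. At 96 h in LA/C-AID 1 member was called, against 7.4% of all genes. It was LMNB2, with 450, 248, 283 and 384 CPM after 96 h, at -1.09 ± 0.29 relative to the parental change (adjusted p = 0.0177). This combined a change of -0.54 in LA/C-AID with one of 0.55 in parental cells, neither called alone. Genes of 60 to 64% GC had a median of -0.59 in this comparison. After removal of the trend LMNB2 was at -0.63 ± 0.16 (adjusted p = 0.00987). Without LA/C-AID 96 h replicate 2 it was -0.96 (adjusted p = 0.0577). LMNB1 in the same comparison was at -0.61 ± 0.21 (adjusted p = 0.0588), and was called in a fit with replicate number as a block (-0.60, adjusted p = 0.0411).

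With TMM scaling no other member differed from the parental response by a called amount. This covers LA/C-AID at 16 h (0.116% of all genes), LB1-AID at 16 h (0.0279%) and 96 h (1.04%), and LB2-AID at 16 h (0.00465%) and 96 h (0.368%). LMNB2 in LB1-AID at 96 h stood at -0.96 ± 0.30 (adjusted p = 0.101), and was called with the trend removed (-0.76, adjusted p = 0.00795) and without the shallow libraries (-0.80, adjusted p = 0.048). The LMNB2 responses of LA/C-AID and LB1-AID differed by -0.13 (-0.73 to 0.46, adjusted p = 0.893). ZMPSTE24 in LA/C-AID at 96 h was called with the trend removed (-0.40, adjusted p = 0.0363), against -0.18 as measured. For the tagged lamins in their own lines the 96 h difference was -0.31 for LMNA (interval -1.02 to 0.40), -0.44 for LMNB1 (-0.87 to -0.02) and -0.24 for LMNB2 (-0.84 to 0.36). Between the 96 h responses of the tagged lines 0 of 24 pairs were called in edgeR's quasi-likelihood test, with 4 at an unadjusted p under 0.05. Of all genes, 1.01% (LA/C-AID minus LB1-AID), 0.489% (LA/C-AID minus LB2-AID) and 0.121% (LB1-AID minus LB2-AID) were called. An unadjusted p under 0.05 was reached by 2853, 2656 and 1572 of the 21484 genes, in the same order. With the trend removed 3 were called: LMNA as given above, and LMNB2 in LA/C-AID minus LB2-AID (-0.66, adjusted p = 0.0256) and in LB1-AID minus LB2-AID (-0.79, adjusted p = 0.0163).

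The supply of the lipid was described with 15 genes of isoprenoid synthesis and of other prenyltransferases, all tested. After auxin FDPS, which makes farnesyl diphosphate, fell in parental cells at 16 h (-0.45) and 96 h (-0.59), in LB1-AID at both times (-0.53 and -0.48) and in LB2-AID at 16 h (-0.44). HMGCS1, an early enzyme of the mevalonate pathway, fell in parental cells at 96 h (-0.72) and in LB1-AID at 16 h (-0.77) and 96 h (-0.64). In LA/C-AID at 96 h MVD (-1.14) and RABGGTA (-0.75) fell and PTAR1 (0.61) and RABGGTB (0.36) rose. After removal of the trend these were -0.54, -0.36, 0.25 and -0.02, and RABGGTB was no longer called (adjusted p = 0.947). At 16 h PTAR1 (0.69, trend removed 0.32) rose there, and in LB2-AID at 96 h none of the 15 was called. The median change was 0.23 in LA/C-AID at 96 h, -0.26 in LB1-AID at 96 h and -0.04 in parental cells at 96 h, against 0.03, 0.04 and -0.03 for all genes.

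Before auxin LA/C-AID was lower than parental cells in 4 of the 15 and higher in 1, where 15.8% of all genes were called. HMGCS1 was at 112 ± 35.5 against 244 ± 15.4 CPM (-1.11, adjusted p = 1.5e-06) and IDI1, which isomerises the isoprene unit, at 48.5 ± 16.3 against 106 ± 9.38 CPM (-1.10, adjusted p = 5.2e-05). CHML, a Rab escort protein, was higher (0.65) and FDPS lower (-0.57). The 96 h changes of HMGCS1 and IDI1 in LA/C-AID exceeded those of parental cells by 0.96 (adjusted p = 0.00634) and 0.87 (adjusted p = 0.033). In LA/C-AID itself these genes changed by 0.23 and 0.38, neither called, and in parental cells by -0.72 and -0.49. The 0 h libraries enter both these differences and those before auxin. In LB1-AID MVK was lower at 0 h (-0.93), and in LB2-AID CHML (-0.60) and HMGCS1 (-0.47) were lower. Between 16 and 96 h CHML fell in LA/C-AID (-0.64) and in LB1-AID (-0.74), where RABGGTA (-0.53, trend removed -0.28, adjusted p = 0.0545) also fell.

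Of 18 genes for other CAAX proteins, 17 were tested, as GBP1 was too low. In parental cells after auxin CENPE, a kinetochore motor, fell at 16 h (-0.50) and 96 h (-0.54). RHOB rose at 16 h (0.49), and DNAJA1 (0.43) and RHEB (0.38) rose at 96 h. In LA/C-AID at 96 h HRAS (-1.07, trend removed -0.48) and CENPF (-0.38, trend removed -0.65) fell and RHEB (0.37) rose. Before auxin HRAS (0.91, trend removed 0.49), DNAJA1 (0.55) and RHOB (0.51, trend removed 0.26) were higher there than in parental cells. RHEB (0.90), RHOB (0.75) and DNAJA2 (0.46) were higher in LB2-AID, and none was called in LB1-AID. In LB1-AID between 16 and 96 h 5 of 17 fell and 1 rose, where 20.4% of all genes were called. Among them PTP4A3 rose, at 0.880 against 0.130 CPM (2.49), and HRAS (-0.71, trend removed -0.41) and PTP4A2 (-0.62) fell. The 16 h level of PTP4A3 is near the counting floor, so the size of its change is uncertain. In those libraries 3 counts equal 0.106 to 0.455 CPM. The median of the list was -0.21, against 0.08 for all genes and -0.06 to -0.50 in the bands of GC content of the GC plot. The bands hold only genes of higher mean level, whereas 0.08 is over all genes tested.

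Lamin B1 transcript is known to follow proliferation, so 10 cell cycle genes were read beside the lamins. None was called after auxin in parental cells or in LB1-AID against 0 h, though with the trend removed CCNB1 (-0.44, adjusted p = 0.000324) and TOP2A (-0.38, adjusted p = 0.00171) were called in LB1-AID at 96 h. In LA/C-AID at 96 h MCM2 fell (-0.48, trend removed -0.21, adjusted p = 0.183) and PCNA rose (0.38). With the trend removed CCNB1 (-0.34, adjusted p = 0.00186), MKI67 (-0.36, adjusted p = 0.0219) and E2F1 (0.35, adjusted p = 0.0298) were also called there. In LB1-AID between 16 and 96 h, where all 3 lamins fell, MCM2 (-0.64), CCNB1 (-0.38) and MCM5 (-0.33) fell. With the trend removed MCM5 was at -0.14 (adjusted p = 0.343), and TOP2A was called lower (-0.32, adjusted p = 0.00139). The median of the list was -0.26, against 0.08 for all genes tested and -0.06 to -0.50 in the bands of GC content, which hold only genes of higher mean level. MKI67, a proliferation marker, was at -0.26 there (adjusted p = 0.185). In LA/C-AID at 0 h, where LMNB1 was higher, MCM2 (0.59) and MKI67 (0.44) were higher and CDK1 (-0.63) lower. With the trend removed RRM2 was also called higher there (0.31, adjusted p = 0.0271). In LB1-AID at 0 h, where LMNB1 was lower, MCM2 was called higher with the trend removed (0.40, adjusted p = 0.0188). In LB2-AID MKI67 (0.75) rose and CCNB1 (-0.54) fell at 96 h, and PCNA was higher than in parental cells at 0 h (0.74). Between 16 and 96 h CCNB1 also fell in LB2-AID (-0.52). The 96 h response of MCM2 in LA/C-AID against parental was called at -0.73 (trend removed -0.39, adjusted p = 0.084). For MKI67 the 96 h response in LA/C-AID minus that in LB2-AID was called at -1.06. The part of proliferation in the lamin values was not tested.

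The genes whose 12 group means most resembled each lamin among 9399 ranked genes are given as a description, since the points share libraries and depth. For LMNA they were IPP (Pearson's r = 0.939), DNAJC22 (0.901) and PLEKHG6 (0.885). For LMNB1 they were RAB11FIP5 (0.969), CLPTM1L (0.966) and MANF (0.959), and for LMNB2 ZNF8 (0.984), LARP1 (0.984) and SOCS7 (0.981). After removal of the trend on GC content and length, DNAJC22 (0.910), MANF (0.948), ZNF8 (0.976) and LARP1 (0.976) stayed among the 3 closest.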

How the data were processed

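The authors deposited raw counts per gene for 46 libraries of total RNA depleted of ribosomal RNA. The submitters' processing notes name GRCh38, STAR 2.7.10a, SAMtools 1.10, deepTools 3.4.5, featureCounts 1.6.4 and DESeq2 1.40.2, and the file header an nf-core/rnaseq environment 1.4.2. Strand setting, handling of reads with several matches and annotation release are not given in the sources used here. Of the table, 62756 genes were usable, and 3 broken lines were left out.

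Counts were tested with edgeR 4.0.16 (quasi-likelihood, TMM factors 0.863 to 1.165, filterByExpr) in 1 fit over all 46 libraries and 12 groups, two-sided, with Benjamini-Hochberg adjustment over 21484 genes. DESeq2 1.42.0, limma 3.58.1 voom with quality weights, other scalings, no filter, a replicate block, a spline trend (5 df) on GC content and length removed from each library, and fits without shallow or single libraries were alternatives. The script was tested on simulated data. In the least deep library 3 counts equal 6.26 CPM and in the deepest 0.0804. The closest of 66 replicate pairs differed beyond sampling noise (chi-square per degree of freedom 3.97).

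The members and gene lists were chosen with earlier results of these data known. By rule, tests are given for called pairs of member and comparison and for each tagged lamin in its own line. For each list, at most 4 called genes of largest change are named per comparison. Some comparisons with calls are given only as counts. Of the CAAX list, 3 were lower in the LA/C-AID 96 h response against parental (7.4% of all genes called). Between 16 and 96 h, 1 was lower in LA/C-AID (5.27%) and 1 in LB2-AID (2.5%). Against 0 h, 1 each was higher in LA/C-AID (1.78%), LB1-AID (1.5%) and LB2-AID (1.81%) at 16 h. In LB2-AID at 96 h 1 was higher (3.55%). Of the isoprenoid list, 1 was higher in LA/C-AID minus LB1-AID (1.01%). Some sequences and 1 list gene that the rule would name are not reported here. Other uncalled members with values were chosen after their values were seen.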

Additional observations from a re-analysis of the deposited data

Results flagged for a closer look

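In 90 groups of 4 libraries, 11 values lay far from the rest of their group by Dixon's criterion, which chance meets in about 1 in 20 groups. LMNA stood at 757.97 CPM in parental 96 h replicate 2 (others 484.84 to 518.59) and at 1547.35 in LB2-AID 0 h replicate 1 (485.07 to 512.01). LMNB1 stood at 205.85 CPM in parental 96 h replicate 2 (172.26 to 177.46) and at 294.59 in LA/C-AID 0 h replicate 1 (201.42 to 206.41). LMNB2 stood at 425.02 CPM in LB1-AID 16 h replicate 1 (327.8 to 342.11) and at 261.13 in LB2-AID 0 h replicate 1 (99.91 to 108.83). RCE1 stood at 66.04 CPM in LA/C-AID 0 h replicate 1 (35.05 to 38.08) and at 60.43 in LB2-AID 0 h replicate 1 (25.85 to 26.9). FNTA stood at 79.75 CPM in LB1-AID 96 h replicate 1 (67.68 to 69.3). The log2 ratio of A-type to B-type lamins was -0.64 in parental 96 h replicate 2 (-0.97 to -0.95) and 0.94 in LB2-AID 16 h replicate 3 (-0.31 to -0.22).

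LMNB2 changed differently in LA/C-AID and parental cells after 96 h, by -1.09 on the log2 scale (edgeR's quasi-likelihood test, adjusted p = 0.0177). In LB1-AID the same difference from parental cells was -0.96 (adjusted p = 0.101), and LA/C-AID minus LB1-AID was -0.13 (adjusted p = 0.893).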

How the results depend on the processing

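Counts of called members depended on the setting, and the cause was not tested. Against 0 h, 3 were called, and 10 without the low-count filter, 5 with DESeq2, 23 with limma voom, 9 with the GC and length trend removed, 13 without libraries under 5000000 counts, 16 with both (an alternative chosen after seeing the data) and 8 on compared groups only. Calls over all genes moved as well. In parental cells at 16 h they went from 1935 to 4943 with voom, 2889 with the trend removed and 2754 without shallow libraries. In LA/C-AID at 16 h they went from 383 to 2789, 342 and 191. Whether the members moved more than all genes was not tested. Against parental at 0 h, 6 became 11 without shallow libraries and 10 with both. For responses against parental, 1 became 3 without the filter, 7 with voom, 5 with the trend removed, 3 without shallow libraries, 7 with both and 3 on compared groups only. Between 96 and 16 h, 4 became 1 under library size only and 9 with voom. Between tagged lines, 0 became 8 with voom, 3 with the trend removed, 4 without shallow libraries and 6 with both. Calls over all genes moved in these families too. For LA/C-AID minus LB2-AID they went from 105 to 3241 with voom, 427 with the trend removed and 755 without shallow libraries. For the 96 h response of LB2-AID against parental they went from 79 to 556, 387 and 128. In LB1-AID between 16 and 96 h they went from 4379 to 4517 under library size only and 6807 with voom. In LA/C-AID against parental at 0 h they went from 3393 to 3301 without shallow libraries. Leaving out 1 library gave 1 to 10, 5 to 8, 0 to 2, 2 to 4 and 0 to 3 in these families, and 0 to 7 called ratios. The count against 0 h was 1 without parental 0 h replicate 1, 10 without LA/C-AID 0 h replicate 2, 5 without LA/C-AID 96 h replicate 1 and 6 without LB2-AID 0 h replicate 1. Called responses numbered 2 without LA/C-AID 0 h replicate 2 or 4 or 96 h replicate 1, and 0 without LA/C-AID 96 h replicate 2. Between 96 and 16 h 2 were called without LB1-AID 16 h replicate 1 or 96 h replicate 1 or 2, and between tagged lines 3 without LB2-AID 0 h replicate 1.

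Tagged lamins in their own lines changed sign where they were not called. LMNA in LA/C-AID at 16 h went from -0.31 to 0.03 with the trend removed, 0.12 without shallow libraries and 0.20 with both (-0.46 to 0.14 leaving out 1 library). Its 16 h difference from parental went from -0.15 to 0.21 with voom, 0.25, 0.28 and 0.45 in the same order (-0.35 to 0.25), and that at 96 h from -0.31 to 0.09, 0.25, 0.13 and 0.45 (-0.50 to 0.09). With both changes the pair was called (adjusted p = 0.0437 and 0.014). LMNB2 in LB2-AID at 16 h ran from -0.04 to 0.55 leaving out 1 library. Its difference from parental at 16 h went from -0.34 to 0.04 with voom, 0.27 without shallow libraries and 0.25 with both (-0.57 to 0.03), and at 96 h from -0.24 to 0.22, 0.03 with the trend removed, 0.24 and 0.22 (-0.38 to 0.16).

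Same-numbered replicates were not shown to be paired: their deviations correlated by -0.57 at the lowest, and every pair was over 0.1 only for LA/C-AID at 16 h (0.12 to 0.69). The replicate block gave 2 called responses, adding LMNB1 in LA/C-AID at 96 h (-0.60, adjusted p = 0.0411), and lost no call.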
